A study of Homo sapiens with 16 samples.

Results

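The dual specificity MAP kinase phosphatases were followed across 16 Affymetrix arrays of HepG2 cells, a human hepatoma line. The members were every probe set whose platform gene symbol was DUSP1, DUSP2, DUSP3, DUSP4, DUSP5, DUSP6, DUSP7, DUSP8, DUSP10 or DUSP14, which gave 18 probe sets of 10 genes among the 11963 genes and 22283 probe sets of the array. The cells carried an adenovirus for LacZ, which encodes beta galactosidase, or an adenovirus for GPI-PLD, a phospholipase that cleaves glycosylphosphatidylinositol anchors, and RNA was taken at 6 h or 12 h. Each of the 4 groups of virus and time had 4 arrays, with 10 microgram of total RNA per array. All groups were virus-treated and neither untreated cells nor an earlier time were among the arrays, so time in culture, time after the virus and time with the transgene cannot be told apart. In bulk RNA, fewer cells expressing a gene and less RNA per cell cannot be told apart either. Nothing in the labels ties the 4 arrays of a group to cultures of their own, and the p-values therefore reflect the spread among these arrays, which may be technical.

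MAP kinases are switched on by phosphorylation of a threonine and a tyrosine in the activation loop, and dual specificity phosphatases switch them off by removing both phosphates. The nuclear members DUSP1, DUSP2, DUSP4 and DUSP5 are typically products of genes that MAP kinase signalling itself induces, which makes them a negative feedback. DUSP6 and DUSP7 are cytoplasmic and prefer ERK, DUSP8 and DUSP10 prefer JNK and p38, and DUSP3 and DUSP14 are small atypical members that lack the MAP kinase binding domain. In liver cells DUSP1 is best known as a stress and growth factor responsive gene.

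Promoter sequences from RefSeq (GRCh38.p14, the 250 bases before the gene start) were matched for 8 of the 10 symbols, with 2 promoters for DUSP10; DUSP4 and DUSP5 were not matched. Those of DUSP1 and DUSP6 are shown because both genes rose with time. That of DUSP8 is shown because it holds the same motif as DUSP1 in a gene whose mean signal lay below the filter. The first lies at chr5:172771196-172771445, the second at chr12:89352502-89352751 and the third at chr11:1572272-1572521, all on the minus strand and printed 5′ to 3′. Capitals mark the cAMP response element half-site TGACG on either strand, so CGTCA is also marked, and the full element TGACGTCA, which contains a half-site on each strand.
DUSP1: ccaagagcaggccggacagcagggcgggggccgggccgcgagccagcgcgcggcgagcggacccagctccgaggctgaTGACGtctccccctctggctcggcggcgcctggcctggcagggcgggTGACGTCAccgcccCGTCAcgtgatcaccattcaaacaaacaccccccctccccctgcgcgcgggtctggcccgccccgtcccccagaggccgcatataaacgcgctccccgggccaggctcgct
DUSP6: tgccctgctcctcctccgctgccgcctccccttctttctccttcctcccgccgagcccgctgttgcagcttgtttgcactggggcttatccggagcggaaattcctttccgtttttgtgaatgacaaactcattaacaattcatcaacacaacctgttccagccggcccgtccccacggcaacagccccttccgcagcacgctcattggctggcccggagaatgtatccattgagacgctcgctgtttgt
DUSP8: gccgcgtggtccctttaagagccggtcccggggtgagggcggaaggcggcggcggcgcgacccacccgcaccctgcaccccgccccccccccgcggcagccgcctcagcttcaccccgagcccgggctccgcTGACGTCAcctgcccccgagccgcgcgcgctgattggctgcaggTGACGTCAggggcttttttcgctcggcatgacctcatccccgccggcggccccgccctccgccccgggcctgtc
The DUSP1 promoter held 1 full element, starting 125 bases before the gene start, and 4 half-sites in all. The DUSP8 promoter held 2 full elements, starting 118 and 74 bases before the start. The full element was found in 1.65% of 35116 RefSeq promoters of this length and the half-site in 21.2%. The other members matched had no full element, and only DUSP3 among them had a half-site. The window of DUSP6 had no match to any of the motifs searched on both strands, which were those above, the AP-1 site TGANTCA (6.57% of promoters), the composite site TGATGNAA (3.14%), the E-box CACGTG (6.34%), the ETS site CCGGAAG (8.52%) and the GC box GGGCGG (42.6%). In DUSP1 the E-box occurred once, overlapping the half-site nearest to the gene start, and the GC box 4 times without overlapping the marked letters. The GC box occurred 4 times in DUSP8 as well. These matches describe letters in a window and no factor binding was measured.

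The deposited MAS5 signals had array medians of 304.5 to 377.6, and no pair of arrays was identical. Mean correlation with the other arrays of the group was 0.938 to 0.939 for GPI-PLD at 12 h and 0.948 to 0.958 in the other groups. Each GPI-PLD array at 12 h correlated more with the arrays of the other groups, at means of 0.941 to 0.943, than with its own group. Every array of the other 3 groups correlated more with its own group. The cause was not tested, and the comparisons that use GPI-PLD at 12 h carry this limit. All 8 hepatocyte markers with a probe set of a single symbol passed the filter, with ALB at a mean signal of 85990, whereas PTPRC (111), CD14 (65.3), CDH5 (20.2), VWF (65.5) and COL3A1 (117) did not. In the other marker lists, 2 of 4 leukocyte genes, 1 of 3 endothelial genes and 4 of 5 fibroblast genes passed. These were LYZ (9632) and CD3E (434), PECAM1 (286), and ACTA2 (2476), COL1A1 (774), COL1A2 (367) and DCN (365). The signals of LYZ and ACTA2 were thus high, and the markers do not all point to hepatocytes. The transgene could not be seen in the GPLD1 probe sets: all 5 had overlapping LacZ and GPI-PLD arrays at both times, and limma fitted over all probe sets gave adjusted p of 1 at 6 h and 0.913 to 0.969 at 12 h. Whether these probe sets match the RNA made by the virus is not given in the sources used here, so the groups are called by their labels and any direction between the viruses rests on the labels alone.

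The first question was how the phosphatases differed between 12 h and 6 h. DUSP1, DUSP5 and DUSP6 were called higher at 12 h and no member was called lower. The DUSP6 call depended on the probe set and on the arrays kept, as given below. Averaged over the viruses, DUSP1 was 2.29-fold higher at 12 h, DUSP5 1.99-fold and DUSP6 1.27-fold. Of the 10 genes, 7 passed the filter on low signal and were tested, and 3 of these 7 (42.9%) were called, all higher, where limma called 16.2% of all 8109 genes tested and 7.78% in the higher direction. The members were chosen with earlier results of these data known, so these shares are a description and no test. In DUSP1 and DUSP5 all arrays at 12 h lay above all arrays at 6 h, as they did in 2.54% of all genes. The median difference of the 7 was 0.12 on the log2(signal + 63) scale, against 0.016 over all genes. A call means a Benjamini-Hochberg adjusted p under 0.05 over all genes tested, errors after log2 differences are standard errors, and folds are on that same scale, which understates changes of low signals. The filter was a mean signal of 208.5 over all arrays, and DUSP2, DUSP4 and DUSP8 lay below it.

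**Figure D1:**
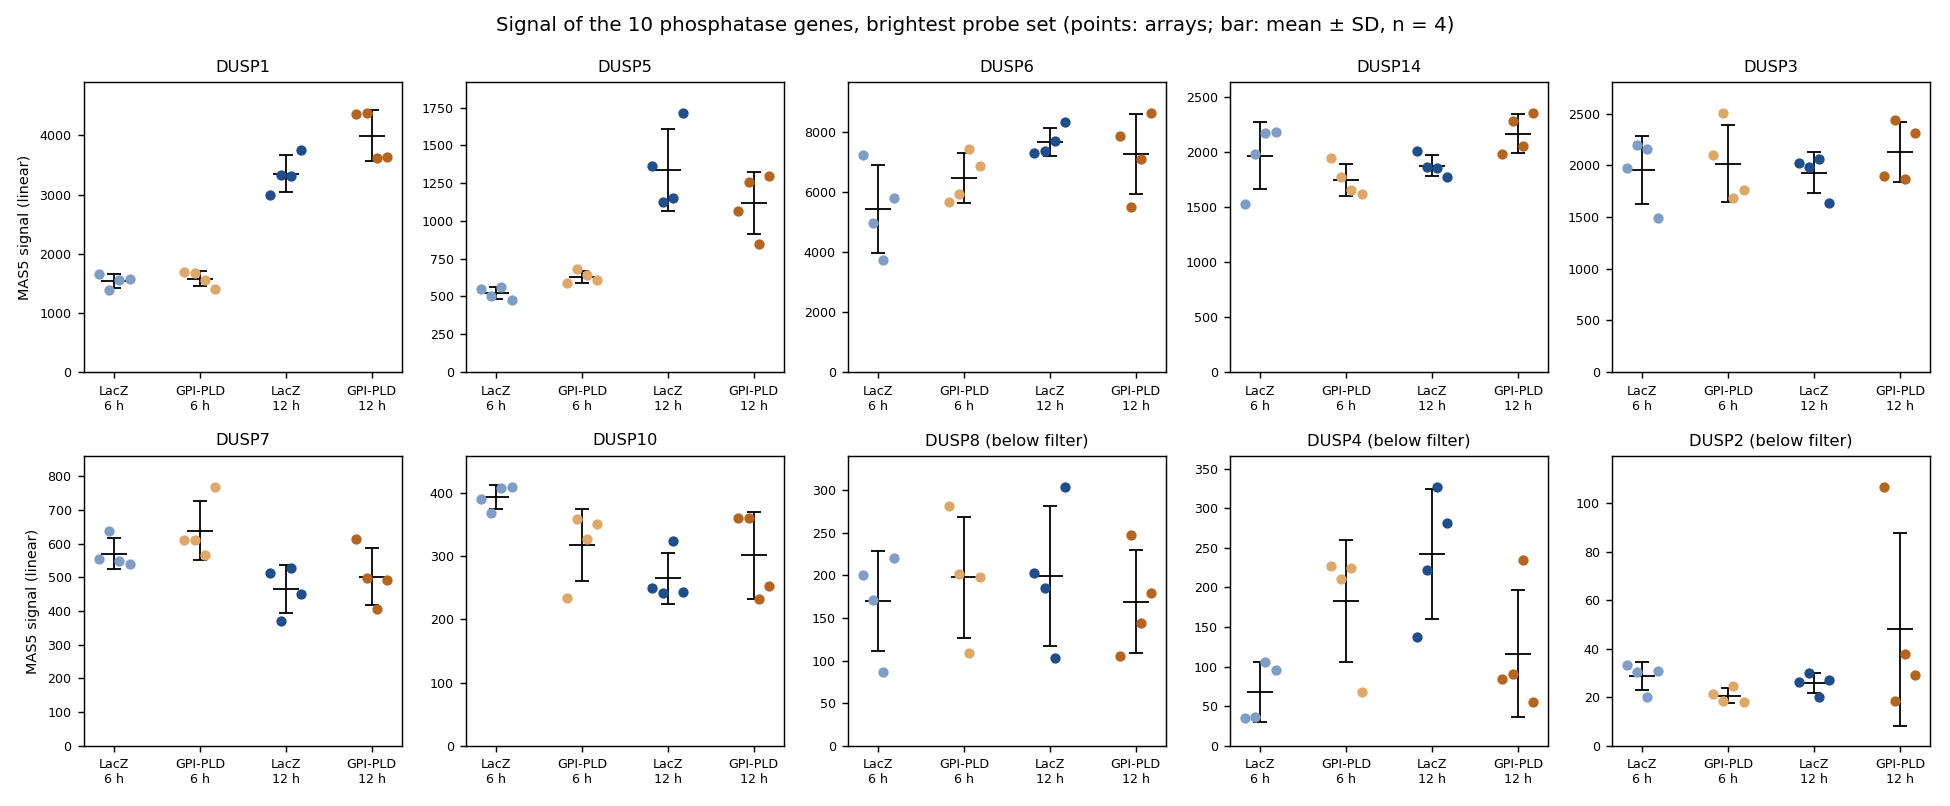
Deposited MAS5 signal (linear scale, y axis) of the brightest probe set of each of the 10 genes, by group (x axis), with 1 point per array and bars for the mean ± SD (n = 4). The 8 DUSP1 and the 8 DUSP5 arrays at 12 h all lie above their 8 arrays at 6 h.

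DUSP1 encodes the nuclear phosphatase that acts on p38, JNK and ERK. Its probe set 201041_s_at gave signals of 1650, 1381, 1559 and 1566 on the LacZ arrays at 6 h and 2986, 3337, 3319 and 3750 at 12 h. On the GPI-PLD arrays it gave 1690, 1666, 1556 and 1409 at 6 h and 4354, 4371, 3610 and 3637 at 12 h. Every array at 12 h was above every array at 6 h, and the spread within a group was small, with means of 1539 ± 113, 1580 ± 128, 3348 ± 312 and 3993 ± 427 (SD, n = 4) for LacZ 6 h, GPI-PLD 6 h, LacZ 12 h and GPI-PLD 12 h. The difference was 1.09 ± 0.10 under LacZ, 2.13-fold with a 95% interval of 1.83 to 2.47 (limma adjusted p = 1.14e-07). Under GPI-PLD it was 1.30 ± 0.10, 2.46-fold with an interval of 2.12 to 2.86 (limma adjusted p = 8e-09). Averaged over the viruses the adjusted p in limma was 2.79e-11. The order of the group levels placed both 12 h groups above both 6 h groups, and neighbours at the same time did not differ beyond the threshold. A second DUSP1 probe set, 201044_x_at, was dim, at 19.7 to 133.6 over the arrays, and its average difference of 0.52 ± 0.19 was not called in the fit over all probe sets (limma adjusted p = 0.123). The suffix of that probe set marks probes that can match other transcripts as well.

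DUSP5 encodes a nuclear phosphatase specific for ERK. Its single probe set gave 549.8, 503.7, 563.9 and 477.8 on the LacZ arrays at 6 h and 1361, 1126, 1152 and 1712 at 12 h. The GPI-PLD arrays gave 586.0, 679.5, 644.0 and 611.1 at 6 h and 1066, 1256, 846.7 and 1301 at 12 h. Under both viruses the arrays of 6 h and 12 h did not overlap, and the mean went from 523.8 to 1338 under LacZ and from 630.2 to 1117 under GPI-PLD (n = 4). The SD was 7.64% and 6.44% of the mean at 6 h and 20.2% and 18.5% at 12 h. The rise was 1.24 ± 0.15 under LacZ, 2.36-fold with a 95% interval of 1.89 to 2.95 (limma adjusted p = 7.85e-06). It was 0.75 ± 0.15 under GPI-PLD, 1.68-fold with an interval of 1.35 to 2.10 (limma adjusted p = 0.00235). The averaged rise was 1.99-fold (limma adjusted p = 4.78e-07). The rises under the 2 viruses were not shown to differ: GPI-PLD minus LacZ was -0.49 ± 0.22 with a 95% interval of -0.94 to -0.033 (limma adjusted p = 0.617).

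DUSP6, the cytoplasmic phosphatase of ERK, was read by 3 bright probe sets, and how firmly it rose depended on which of them was used. The brightest, 208891_at, gave 7241, 4981, 3752 and 5802 on the LacZ arrays at 6 h and 7317, 7377, 7715 and 8334 at 12 h. On the GPI-PLD arrays it gave 5675, 5935, 7457 and 6873 at 6 h and 7872, 5520, 7127 and 8639 at 12 h. The LacZ arrays of the 2 times did not overlap, with the highest 6 h array close below the lowest 12 h array, and the GPI-PLD arrays did overlap. The difference was 0.53 ± 0.15 under LacZ (1.44-fold, 95% interval 1.16 to 1.80, limma adjusted p = 0.0383) and 0.16 ± 0.15 under GPI-PLD (limma adjusted p = 0.593). The average of 0.34 ± 0.11 passed with an adjusted p of 0.0331 in limma. That averaged call was lost without any 1 of 9 of the 16 arrays, at limma adjusted p from 0.0525 to 0.0704: arrays 2 and 3 of LacZ 6 h, 1 and 2 of GPI-PLD 6 h, 3 and 4 of LacZ 12 h, and 1, 3 and 4 of GPI-PLD 12 h. The LacZ call was lost without any 1 of 8, at limma adjusted p from 0.051 to 0.132: arrays 2, 3 and 4 of LacZ 6 h, each of the 4 of LacZ 12 h, and array 3 of GPI-PLD 12 h.

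The other 2 DUSP6 probe sets had less scatter. Probe set 208892_s_at gave 2960, 2832, 2648 and 2993 under LacZ at 6 h, 4350, 3851, 3442 and 3572 under LacZ at 12 h, 2787, 3018, 2952 and 2535 under GPI-PLD at 6 h, and 3488, 3273, 3211 and 3153 under GPI-PLD at 12 h. Probe set 208893_s_at gave 2786, 2861, 2916 and 2315 under LacZ at 6 h, 3583, 3317, 3773 and 3430 under LacZ at 12 h, 2558, 2904, 2738 and 2288 under GPI-PLD at 6 h, and 3441, 4215, 3412 and 3571 under GPI-PLD at 12 h. In both probe sets every 12 h array was above every 6 h array, also across the viruses, as was the case for 1.37% of all probe sets in the higher direction. In the limma fit over all 22215 probe sets outside the controls, the averaged rise was 0.31 ± 0.065 in the first (adjusted p = 0.00417) and 0.42 ± 0.072 in the second (adjusted p = 0.000542). Both averaged calls held without each of the 16 arrays in turn. Within a virus, the first was called under LacZ (0.40 ± 0.093, limma adjusted p = 0.0179) and not under GPI-PLD (0.21 ± 0.093, limma adjusted p = 0.247). The second was called under GPI-PLD (0.47 ± 0.10, limma adjusted p = 0.00898) and missed under LacZ (0.37 ± 0.10, limma adjusted p = 0.0557). The LacZ call of the first held in 13 of 16 such fits and was lost without array 3 of LacZ 6 h (limma adjusted p = 0.0607) or array 1 (0.0833) or 2 (0.0574) of LacZ 12 h, and that of the second was gained without array 2 of GPI-PLD 12 h (0.0391). Over all probe sets, 4 of the 18 member probe sets were called in the average, all higher, where 3.63% of all probe sets were; these were those of DUSP1 and DUSP5 and the pair just given for DUSP6. Within a virus, 3 of 18 were called under LacZ and 3 under GPI-PLD, all higher, beside 1.59% and 2% of all probe sets.

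**Figure D2:**
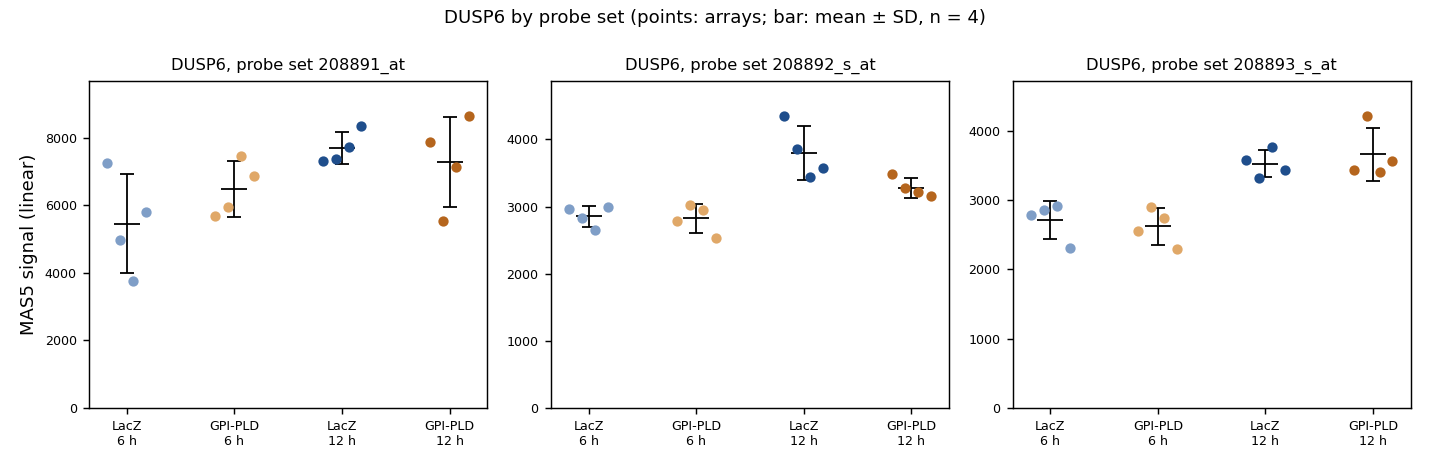
Deposited MAS5 signal (linear scale from 0) of the 3 DUSP6 probe sets by group, with 1 point per array and bars for the mean ± SD (n = 4). In the 2 dimmer probe sets the arrays at 12 h lie above those at 6 h, whereas in 208891_at the LacZ arrays at 6 h spread from 3752 to 7241.

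Within each virus, 3 of the 7 genes were called under LacZ (42.9%; 6.89% of all genes, 3.64% higher) and 2 of 7 under GPI-PLD (28.6%; 9.64% of all genes, 4.59% higher). DUSP1, DUSP5 and DUSP6 made up the first set and DUSP1 and DUSP5 the second. The member medians were -0.011 under LacZ and 0.16 under GPI-PLD, beside 0.0050 and 0.013 over all genes. Arrays of the 2 times did not overlap in 5 members under LacZ, 3 higher and 2 lower, against 12.9% of all genes, and in 3 members under GPI-PLD, all higher, against 15.9% of all genes (8.04% higher). The 2 time comparisons share no arrays, but both use the same estimate of each gene's spread, taken from all 16 arrays.

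DUSP14, an atypical phosphatase that has been tied to JNK and T cell signalling, was the third non-overlapping member under GPI-PLD. Its signals were 1941, 1773, 1652 and 1618 on the GPI-PLD arrays at 6 h and 1977, 2282, 2050 and 2349 at 12 h. The LacZ arrays gave 1528, 1976, 2175 and 2181 at 6 h and 2009, 1861, 1852 and 1776 at 12 h. The GPI-PLD arrays of 12 h thus lay just above those of 6 h, and the LacZ arrays overlapped. The difference under GPI-PLD was 0.30 ± 0.11 with a 95% interval of 0.065 to 0.54 and was not called (limma adjusted p = 0.103). Under LacZ it was -0.053 ± 0.11, with a 95% interval of -0.29 to 0.18 (limma adjusted p = 0.861).

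DUSP7, a cytoplasmic phosphatase of ERK like DUSP6, leaned the other way without passing. Its probe set 213848_at gave 553.4, 638.9, 550.0 and 538.5 under LacZ at 6 h and 514.3, 370.0, 528.3 and 450.0 at 12 h, and 610.7, 612.6, 565.5 and 768.2 under GPI-PLD at 6 h and 613.5, 497.0, 407.0 and 491.0 at 12 h. The LacZ arrays of the 2 times did not overlap, and the GPI-PLD arrays did. The averaged difference was -0.29 ± 0.12, with a 95% interval of -0.55 to -0.037 (limma adjusted p = 0.116). Its other probe set, 214793_at, was below the filter and scattered from 15.3 to 329.1; its averaged difference had the opposite sign, at 0.36 ± 0.33.

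DUSP10, which prefers JNK and p38, gave 390.0, 368.4, 408.3 and 409.0 in probe set 221563_at under LacZ at 6 h and 250.2, 241.5, 324.1 and 243.0 at 12 h. Under GPI-PLD it gave 234.2, 358.5, 326.3 and 351.4 at 6 h and 359.4, 359.7, 232.2 and 252.7 at 12 h. The LacZ arrays did not overlap, lower at 12 h, and the GPI-PLD arrays ran over the same range. The difference was -0.49 ± 0.24 under LacZ (limma adjusted p = 0.258) and -0.070 ± 0.24 under GPI-PLD (limma adjusted p = 0.904). Its second probe set, 215501_s_at, also passed the filter, ranged from 121.5 to 420.7 and was not called, with an average of -0.18 ± 0.23.

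DUSP3, a small phosphatase of ERK and JNK, showed no difference with time that passed. Group means in 201537_s_at were 1955 ± 325, 2013 ± 372, 1926 ± 198 and 2126 ± 290 (SD, n = 4) for LacZ 6 h, GPI-PLD 6 h, LacZ 12 h and GPI-PLD 12 h. The averaged difference was 0.036 ± 0.098 (limma adjusted p = 0.857), and its 95% interval ran from 0.890-fold to 1.18-fold. The second probe set, 201536_at, ranged from 1536 to 2510 with a difference of 0.00080 ± 0.10. The third, 201538_s_at, ranged from 601.4 to 1513 with a difference of -0.25 ± 0.13 (limma adjusted p = 0.335 over all probe sets).

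The members below the filter were the inducible nuclear phosphatases DUSP2 and DUSP4 and the JNK phosphatase DUSP8. DUSP2 was at 18.2 to 38 on 15 arrays and at 106.6 on the first GPI-PLD array at 12 h. DUSP8 lay between 87.1 and 303.4, with all 4 groups overlapping, and its average difference was -0.0015 ± 0.24. That of DUSP2 was 0.15 ± 0.14. Neither had a call in the fit over all probe sets, and the 95% intervals of the averaged difference ran from 0.903-fold to 1.37-fold for DUSP2 and from 0.705-fold to 1.42-fold for DUSP8, on a scale that understates changes of such low signals.

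DUSP4 gave uneven groups in its brighter probe set, 204015_s_at. The LacZ arrays gave 34.9, 36.9, 106.1 and 95.1 at 6 h and 137.0, 221.9, 326.6 and 281.8 at 12 h. The GPI-PLD arrays gave 227.5, 210.4, 224.5 and 67.8 at 6 h and 84.3, 91.2, 234.8 and 55.5 at 12 h. The LacZ arrays of the 2 times did not overlap, higher at 12 h, while the GPI-PLD arrays overlapped and had 3 of 4 arrays lower at 12 h than 3 of the 4 at 6 h. In the fit over all probe sets the time difference was 1.22 ± 0.38 under LacZ and -0.47 ± 0.38 under GPI-PLD, and GPI-PLD minus LacZ of these was -1.69 ± 0.54 (limma adjusted p = 0.551). The time differences were not called either (limma adjusted p = 0.102 under LacZ and 0.604 under GPI-PLD). Its other probe set, 204014_at, was at 6.6 to 131.6 and showed no such pattern, with differences of 0.23 ± 0.29 and 0.28 ± 0.29.

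**Figure D3:**
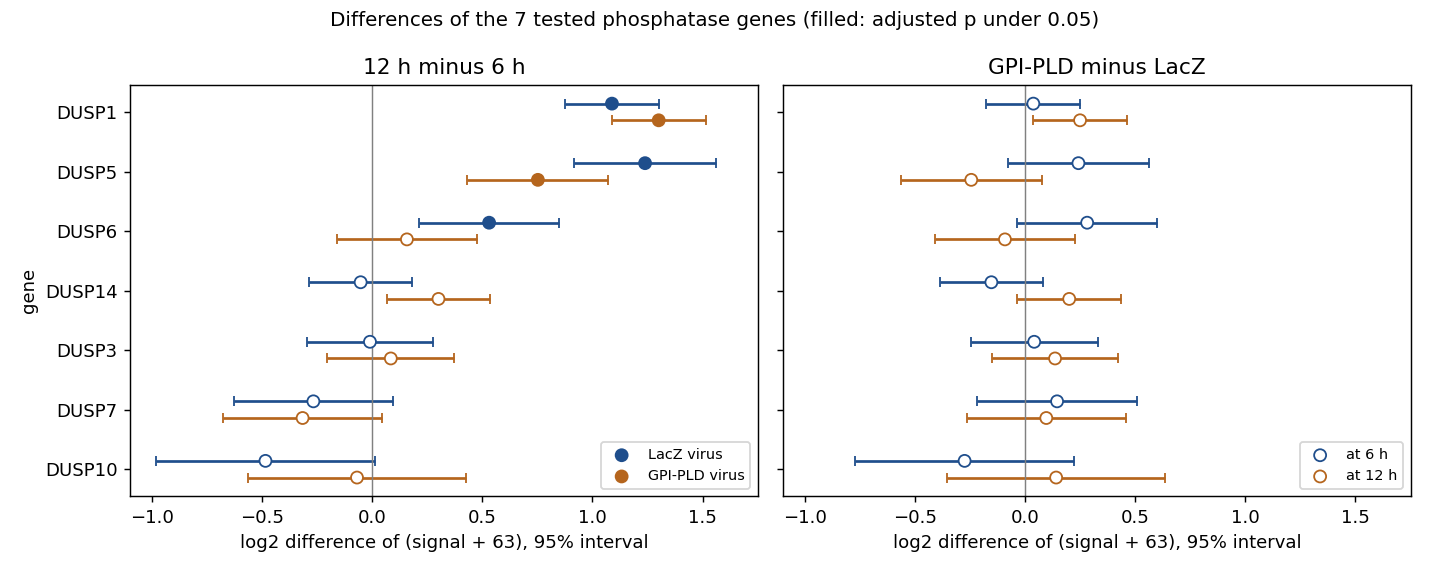
Log2 differences (x axis, log2(signal + 63) scale) with 95% intervals for the 7 tested genes (y axis), for 12 h minus 6 h under each virus and for GPI-PLD minus LacZ at each time. DUSP1 and DUSP5 stand clear of 0 over time under both viruses, and the interval of DUSP1 between the viruses at 12 h, 0.034 to 0.46, is the one virus interval that leaves out 0.

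The second question was whether the phosphatases differed between the arrays labelled GPI-PLD and LacZ. No member was called at 6 h or at 12 h, and limma called 0% of all 8109 genes in either comparison, with 375 genes at an unadjusted p under 0.05 at 6 h and 584 at 12 h. Of the 7 members, 0 had such a p at 6 h and 1 at 12 h. The median member difference was 0.040 at 6 h and 0.13 at 12 h, beside 0.0032 and 0.0063 over all genes. With eBayes run plain, limma called 2 genes at 6 h, 0 at 12 h and no member.

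At 6 h, 2 members had arrays of the 2 viruses that did not overlap, against 3.07% of all genes. These were DUSP5, higher under GPI-PLD by 0.24 ± 0.15 (95% interval -0.080 to 0.56), and DUSP10, lower by -0.28 ± 0.24 (-0.77 to 0.22). DUSP6 was 0.28 ± 0.15 higher in 208891_at (-0.038 to 0.60) and -0.019 ± 0.093 and -0.051 ± 0.10 in the other 2 probe sets. The 95% interval for DUSP1 was -0.18 to 0.25, for DUSP3 -0.25 to 0.33, for DUSP7 -0.22 to 0.51 and for DUSP14 -0.39 to 0.081. All 7 had a limma adjusted p of 0.998.

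At 12 h no member had arrays that did not overlap, against 3.96% of all genes. DUSP1 was 0.25 ± 0.10 higher under GPI-PLD (1.19-fold, 95% interval 1.02 to 1.38), which was not called (limma adjusted p = 0.659). The lower pair of its GPI-PLD arrays, 3610 and 3637, lay below the highest LacZ array at 3750. DUSP5 was -0.25 ± 0.15 (95% interval -0.57 to 0.075), the opposite sign from 6 h. The intervals were -0.41 to 0.23 for DUSP6, -0.15 to 0.42 for DUSP3, -0.27 to 0.46 for DUSP7, -0.36 to 0.64 for DUSP10 and -0.036 to 0.43 for DUSP14, with limma adjusted p from 0.728 to 0.931 for these and DUSP5.

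The third question was whether the change with time differed between the viruses. No member was called for this interaction, where limma called 1 of 8109 genes (0.0123%). The 95% intervals of DUSP5 (-0.94 to -0.033) and DUSP14 (0.35 ± 0.16, 0.021 to 0.69) left out 0, at limma adjusted p of 0.617 and 0.625. The interaction was 0.21 ± 0.15 for DUSP1, -0.37 ± 0.22 for DUSP6, 0.42 ± 0.34 for DUSP10, 0.095 ± 0.20 for DUSP3 and -0.049 ± 0.25 for DUSP7. Of all genes, 615 had an unadjusted p under 0.05.

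Genes around the phosphatases in the MAP kinase network, and stress and growth arrest genes, were counted in lists. The counts are to be read beside the shares of all genes called: 16.2% in the averaged time comparison (7.78% higher), 6.89% under LacZ and 9.64% under GPI-PLD. Among other dual specificity and related phosphatases, 0 of 10 tested genes were called in the averaged time comparison by limma, with or without trend and robust, and 2 had an unadjusted p under 0.05; the median was 0.00052. DUSP9, an ERK phosphatase, was at -0.16 ± 0.066 (limma adjusted p = 0.106) and the RNA phosphatase DUSP11 at 0.12. Under GPI-PLD alone, SSH3, which dephosphorylates cofilin, fell by 1.08 ± 0.31 (limma adjusted p = 0.0293) and CDC14B, a cell cycle phosphatase, fell by 0.43 ± 0.13 (limma adjusted p = 0.0339). The SSH3 arrays at 12 h ran from 92.7 to 654.8 and overlapped those at 6 h, and its call was lost without array 1 (limma adjusted p = 0.115) or 2 (0.0795) of GPI-PLD 12 h, or array 2 (0.103) or 3 (0.0609) of GPI-PLD 6 h. The CDC14B call was lost without any 1 of the 4 GPI-PLD arrays at 6 h (adjusted p = 0.0659 to 0.0797) or without array 1 (0.111), 2 (0.0568) or 4 (0.0668) of GPI-PLD 12 h. With each gene read as its probe sets' mean both calls ended, at -0.51 for SSH3 (limma adjusted p = 0.127) and -0.12 for CDC14B (0.794). Over all probe sets both were lost too (limma adjusted p = 0.0631 for SSH3 and 0.071 for CDC14B). Plain eBayes also lost both (limma adjusted p = 0.0719 and 0.0546 in that order). With the compared arrays alone the SSH3 call was lost as well (limma adjusted p = 0.0943).

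Of 26 tested kinases of the cascades themselves, 2 rose and none fell in the averaged comparison, with a list median of 0.14, a share near the 7.78% of all genes called higher. MAPK6, the atypical kinase ERK3, rose by 0.39 ± 0.062 (limma adjusted p = 8.3e-05) from 13764 to 17370 under LacZ and from 13320 to 18071 under GPI-PLD in group means. MAP2K4, which activates JNK, rose by 0.24 ± 0.074 (limma adjusted p = 0.024), a call lost without array 4 of GPI-PLD 6 h (adjusted p = 0.0582) and with the mean of its probe sets (0.103). MAPK3, the kinase ERK1, was called under LacZ alone, at 0.84 ± 0.24 (limma adjusted p = 0.034), and not without array 4 of LacZ 6 h (0.133) or array 1 (0.102), 3 (0.0751) or 4 (0.085) of LacZ 12 h. The MAPK3 call was also lost with no filter (limma adjusted p = 0.0539), with plain eBayes (0.0748) and over all probe sets (0.0759). MOS was at 0.56 ± 0.23 (limma adjusted p = 0.11) in the average. Among 11 kinases that MAP kinases phosphorylate, 1 was called: MKNK2, which phosphorylates the cap-binding protein, at 0.25 ± 0.083 (limma adjusted p = 0.0451). That call was lost without any 1 of 11 of the 16 arrays, at adjusted p from 0.05 to 0.103: arrays 2 and 4 of LacZ 6 h, all 4 of GPI-PLD 6 h, 2 and 4 of LacZ 12 h, and 1, 3 and 4 of GPI-PLD 12 h. It was also lost with scaling at the 75th percentile (limma adjusted p = 0.0889), no filter (0.0664) and plain eBayes (0.0845). The same held with genes read as their probe sets' mean (0.0527) and over all probe sets (0.0922).

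Upstream, 1 of 6 tested EGF family ligands and receptors was called. EGFR, the EGF receptor, rose by 0.47 ± 0.13 in its brightest probe set (limma adjusted p = 0.0152), but the mean of its probe sets gave 0.18 (adjusted p = 0.362). ERBB3 was at -0.13, the ligand TGFA at 0.19 and NRG1 at -0.14. Of 11 tested other feedback inhibitors, 2 rose and 1 fell, with a list median of 0.13. SPRY4, an inhibitor of receptor signalling to ERK, rose by 1.09 ± 0.089 (2.13-fold, limma adjusted p = 3.49e-09), from means of 1230 ± 137 and 1497 ± 102 to 2829 ± 237 and 3150 ± 653 (SD, n = 4; LacZ first). SPRY1 rose by 0.29 ± 0.087 (limma adjusted p = 0.023), while SPRY2 was at 0.39 ± 0.14 (limma adjusted p = 0.0538). The SPRY1 call did not hold without array 4 of LacZ 6 h (adjusted p = 0.0502), array 3 of GPI-PLD 6 h (0.063), array 2 of LacZ 12 h (0.0548) or array 1 of GPI-PLD 12 h (0.0569). Over all probe sets the SPRY1 call was lost too (limma adjusted p = 0.0511). PEBP1, the RAF inhibitor protein, fell by 0.26 ± 0.058 (limma adjusted p = 0.00324).

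The lists of ERK-responsive transcription and of stress and growth arrest genes held more calls. Of 20 tested genes in the list for ERK-responsive transcription, 11 were called higher and none lower in the average. The list median was 0.60 against 0.016 over all genes, of which 16.2% were called. The list also holds the transcription factors SRF (-0.048), ELK1 (-0.067) and ELK3 (-0.42), none of them called. Also not called in the average were EGR4 (0.51), NR4A1 (0.13), ETV5 (0.092), ETV4 (0.039), ETV1 (-0.30) and CCND1 (-0.31). IER3 rose by 1.29 ± 0.063, PHLDA1 by 0.92 ± 0.057, MYC by 1.31 ± 0.083 and IER2 by 1.05 ± 0.078, with limma adjusted p from 3.19e-13 to 7.43e-10. Under LacZ 11 rose, and under GPI-PLD 8 rose and CCND1, which encodes cyclin D1, fell by 0.58 ± 0.18 (limma adjusted p = 0.0449), a call lost without any 1 of 7 arrays (adjusted p = 0.0516 to 0.181): array 1 of LacZ 6 h, 2, 3 and 4 of GPI-PLD 6 h, 4 of LacZ 12 h, and 1 and 3 of GPI-PLD 12 h. With these arrays counted, the CCND1 call was lost in 12 of 27 alternatives. Among them were no filter, the mean of its probe sets, all probe sets, plain eBayes and the compared arrays alone. Over the alternatives, calls of this list in either direction were 10 to 11 under LacZ and 8 to 10 under GPI-PLD. Of all genes, 6.89% and 9.64% were called in these comparisons. Of 16 tested stress and growth arrest genes, 10 rose and none fell, with a median of 0.65. The list is no readout of JNK or p38, and the activity of MAP kinases was not measured. The pseudokinase TRIB3 rose by 1.26 ± 0.059, and the transcription factors DDIT3 and ATF3 by 1.71 ± 0.10 and 1.96 ± 0.12. PPP1R15A, a subunit that directs a phosphatase to the translation factor eIF2, rose by 1.68 ± 0.13. Their limma adjusted p ran from 1.64e-13 to 7.95e-10. In the comparisons between the viruses and in the interaction, limma called 0 genes of each of these 7 lists, with or without trend and robust, and between 0 and 3 genes of a list had an unadjusted p under 0.05 in a comparison. The lowest difference among them at 12 h was that of SSH3, -1.31 ± 0.31 (limma adjusted p = 0.338), which was called without array 3 of GPI-PLD 12 h (-1.69 ± 0.26, limma adjusted p = 0.0176). The lists were chosen with earlier results of these data known and are given as counts, with no test of a list.

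**Figure D4:**
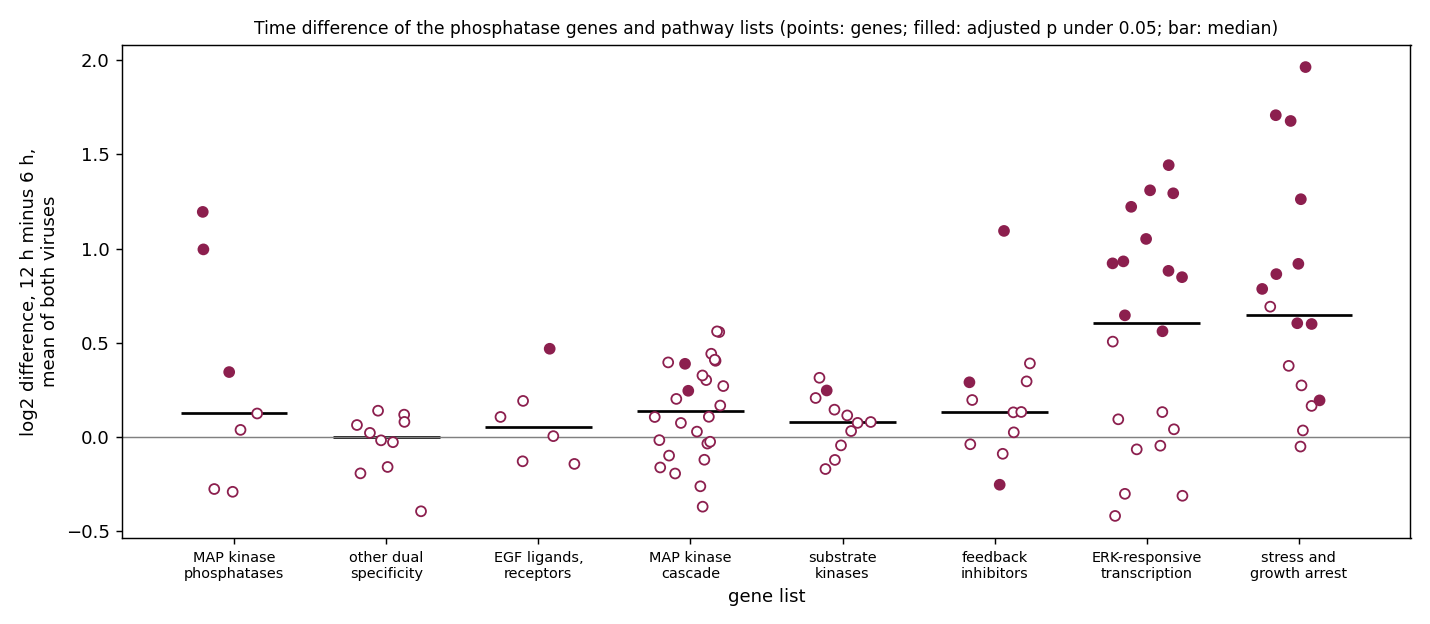
Log2 difference between 12 h and 6 h averaged over the viruses (y axis, log2(signal + 63) scale) for the tested genes of each list (x axis), with 1 point per gene, called genes filled and the list median as a bar. The lists of ERK-responsive transcription and of stress and growth arrest have medians of 0.60 and 0.65, and the list of other dual specificity phosphatases has 0.00052.

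Genes most like a member in pattern were ranked by Pearson's r of log2 values over the 16 arrays among 4051 tested genes with a signal at or above the median. For DUSP1 they were PHLDA1 (r = 0.984), GDF15 (0.978) and MAFF (0.978). For DUSP5 they were CEBPB (0.933), MYC (0.933) and TNFRSF10B (0.93). Within groups, on the deviations from group means, r was 0.454, 0.373 and 0.58 for the first set and 0.114, 0.453 and 0.255 for the second, all lower than over the 16 arrays, which include the difference between the times. For DUSP6 in 208891_at they were YES1 (0.847), RALA (0.842) and LRRC1 (0.838), with within-group r of 0.816, 0.78 and 0.73. For DUSP7 they were RPA2 (0.787), TRIP13 (0.786) and POLE3 (0.781), with within-group r of 0.58, 0.539 and 0.566. These are descriptions of arrays that share their groups and scaling.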

How the data were processed

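RNA of HepG2 cells was measured on Affymetrix arrays, 4 for each of 4 groups of virus and time. The authors deposited 1 MAS5 signal per probe set and array, an intensity on a linear scale, with MAS5 per the submitters' processing notes; how arrays were scaled is not stated there, and a 2% trimmed mean of about 999 to 1000 on every array (999.3 to 999.81) was the same scale for all. Array number limits the precision. Replicate numbers are accession order only.

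Probe sets were named from GEO's platform annotation: 19065 had 1 symbol, 1043 several and 2107 none, 68 were controls, and gene IDs of 19053 were found in the RefSeq table with 0 changed symbols. A pseudocount of 63, the 20th percentile of the signals, was added before log2. Each of 11963 genes was read by its brightest probe set with 1 symbol and tested if its mean reached the 40th percentile, 208.5. The 4 group means were fitted in limma 3.58.1 (R 4.3.3, statmod 1.5.0) by lmFit, and contrasts were moderated by eBayes with a trended, robust prior, on 12 residual degrees of freedom beside a median prior of 10.6; p-values were adjusted by Benjamini-Hochberg over all 8109 genes within a comparison. All 18 member probe sets were also read from a fit over all 22215 probe sets outside the controls. The steps were tested on simulated data.

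The text names all members, up to 4 genes per pathway list with the smallest p in the averaged time comparison, members of a list where 5 or fewer were called, and the 3 most similar genes of each of the 4 members with the smallest p. CCND1 lies outside this rule and was chosen after its values were seen, as the 1 gene of the ERK-responsive list called lower, under GPI-PLD. SRF, ELK1, ELK3 and the other genes of that list not called in the average are, beyond CCND1, named only to describe it. The members and lists were chosen with earlier results of these data known. Alternatives were quantile normalization, scaling at the 75th percentile, no pseudocount, 4 times the pseudocount, no filter, a filter at the 60th percentile, a gene read as its probe sets' mean, every probe set fitted, plain eBayes (no trend, not robust), array weights, the compared arrays alone, and each array left out. Plots used Python 3.11.15, pandas 2.3.3 and matplotlib 3.10.9.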

Additional observations from a re-analysis of the deposited data

Results flagged for a closer look

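In a group of 4 arrays, a value was singled out when its gap to the nearest of the others, as a share of the group's range, passed Dixon's criterion, which chance gives in about 1 in 20 groups. Of 72 groups of member probe sets 7 met this, and of all 184 groups looked at, list genes included, 13 did.

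For DUSP3, LacZ 6 h replicate 3 was at 2307 in 201536_at, above the others at 1832 to 1884, and LacZ 12 h replicate 2 was at 601.4 in 201538_s_at, below the others at 1116 to 1200. For DUSP4, GPI-PLD 12 h replicate 3 was at 131.6 in 204014_at, where the others lay between 17.5 and 33.7. In 204015_s_at of DUSP4, GPI-PLD 6 h replicate 4 was at 67.8, where the others lay between 210.4 and 227.5. For DUSP7, LacZ 6 h replicate 2 was at 638.9 in 213848_at, above 538.5 to 553.4. For DUSP10, LacZ 6 h replicate 4 was at 234.0 in 215501_s_at, below 292.1 to 294.0, and LacZ 12 h replicate 3 was at 324.1 in 221563_at, above 241.5 to 250.2.

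Among list genes, LacZ 6 h replicate 1 was low for DDIT3, at 789.8 against 1182 to 1198, and LacZ 6 h replicate 4 was high for ERBB3, at 3977 against 3261 to 3368. GPI-PLD 12 h replicate 4 was high for MAPK3, at 865.5 against 524.4 to 570.0, and LacZ 6 h replicate 3 for RPS6KA3, at 11087 against 9008 to 9357. GPI-PLD 6 h replicate 3 was low for SPRY1, at 1527 against 1949 to 1996, and LacZ 12 h replicate 1 was high for TGFA, at 610.7 against 534.2 to 545.0. The cause was not tested.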

How the results depend on the processing

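The counts of members called kept within 2 to 3 in each time comparison and at 0 in the virus comparisons and the interaction. DUSP1 and DUSP5 passed in every alternative run, at 0.86 to 1.23 and 0.82 to 1.07 for the time difference averaged over the viruses. DUSP6 by its brightest probe set kept its sign there (0.26 to 0.42) but not its call: the adjusted p was 0.0614 over all probe sets, 0.0866 with eBayes without trend and robust, and 0.000129 with the mean of its probe sets, which also called it under GPI-PLD (0.28, adjusted p = 0.0274). Under LacZ the call of DUSP6 was lost over all probe sets (limma adjusted p = 0.0727), with eBayes without trend and robust (0.11) and with array weights (0.0561). DUSP7 in the average passed, as lower, with eBayes without trend and robust alone (-0.29, limma adjusted p = 0.0491). The averaged count stayed at 3 in that setting, with DUSP7 lower in place of DUSP6, so the calls were not all higher there. No paired analysis was possible because the labels give no replicate numbers.

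Some signs turned. With the mean of its probe sets, DUSP3 went from 0.036 to -0.071 averaged over the viruses and from 0.084 to -0.038 under GPI-PLD. The same setting, which brings in the dim second probe set of DUSP7, took DUSP7 from -0.29 to 0.034 for 12 h versus 6 h averaged over the viruses, from -0.32 to 0.33 in GPI-PLD, from 0.14 to -0.21 for GPI-PLD versus LacZ at 6 h and from -0.049 to 0.59 for the interaction. Values within 0.1 of 0 turned with 1 array left out in turn: DUSP3 ranged from -0.024 to 0.090 over time in the average, from -0.13 to 0.063 in LacZ and from -0.081 to 0.12 between the viruses at 6 h. Likewise DUSP7 ranged from -0.14 to 0.036 in the interaction, DUSP10 from -0.18 to 0.024 over time in GPI-PLD, DUSP1 from -0.013 to 0.088 between the viruses at 6 h and DUSP6 from -0.18 to 0.033 between them at 12 h. No scaling moved the median of all genes by over 0.1. Counts over all genes were 1127 to 1575 in the averaged time comparison, 390 to 636 under LacZ and 548 to 844 under GPI-PLD, and 0 to 2 at 6 h, 0 to 2 at 12 h and 0 to 3 in the interaction.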
